A study of Mus musculus with 8 samples.

Results

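Of the 8375 Qki-5 peaks called on chromosomes 1 to 19, X and Y in oligodendrocytes isolated from mouse brain, 1706 (20.4%, 95% exact interval 19.5 to 21.2) had no counterpart in differentiated oligodendrocytes. These isolated-cell-only sites were chosen by the deposited peak calls: the centre of each lay at least 200 bp from every peak centre in the differentiated-cell lists of RNA polymerase II (Pol II), HA, PPARb and Qki-5, so that the 200 bp windows did not overlap. The other 6669 Qki-5 peaks of isolated cells had at least 1 such counterpart. The share of 20.4% is fixed by the rule and is given as a description only.

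The isolated cells came from brains of C57BL6 mice by magnetic beads that bind O4, an antigen on cells of the oligodendrocyte lineage, and were used at passage 0. Chromatin immunoprecipitation with sequencing (ChIP-seq) was done on them with a home-made antibody against Qki-5 and a commercial antibody against PPARb, beside an input library. The differentiated cells, at passage 7, derived from neural stem cells (FvB/C57BL6 hybrid) with ectopic PPARb, labelled as HA-PPAR. Their differentiation medium was Neurobasal with B-27, IGF-1 (100 ng/mL), the thyroid hormone T3 (50 ng/mL) and GlutaMAX-I (2 mM). On these cells antibodies against Qki-5, PPARb, HA and Pol II were used, beside their own input library. A single library stood for each antibody in each kind of cell, so replicate error is unknown, no test was run, and all intervals cover counting error only. In the file headers, the differentiated-cell Qki-5 reads and the input reads of isolated cells are named as a merge, with no account of its sources. Strain, passage, culture and the introduced PPARb differed together between the cell kinds, and their parts in the choice of these sites cannot be told apart. Beads against O4 do not by themselves show how pure the isolated cells were, and the sources used here do not give the number of animals.

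Oligodendrocytes wrap axons in myelin, a sheath of lipid-rich membrane held together by proteins such as Mbp. Quaking, encoded by Qk, is an RNA-binding protein of glia that is needed for myelination, and Qki-5 is its nuclear isoform. PPARb, encoded by Ppard, is a nuclear receptor that binds fatty acids and acts as a partner of RXR receptors on genes of lipid use. Quaking is also expressed in endothelial cells, which line the blood vessels of the brain.

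The promoters below show where some of these sites lie at genes that mark the cells. Each is the 250 bases before a listed transcription start, from RefSeq on GRCm38.p6 (the build mm10 of the peak lists), written 5′ to 3′ on the gene's own strand. Each shares at least 102 bases with its Qki-5 peak, and the capitals mark CG dinucleotides. Mobp (chr9:120149492-120149741, plus strand), Hapln2 (chr3:88027512-88027761, minus strand), Mag (chr7:30914864-30915113, minus strand) and Tspan2 (chr3:102734520-102734769, plus strand) are myelin genes with an isolated-cell-only site. Cldn5 (chr16:18776597-18776846, plus strand) and Erg (chr16:95459349-95459598, minus strand) are endothelial genes with such a site. Ppard (chr17:28232504-28232753, plus strand) is shown for contrast, since its Qki-5 peak had a counterpart in differentiated cells.
Mobp: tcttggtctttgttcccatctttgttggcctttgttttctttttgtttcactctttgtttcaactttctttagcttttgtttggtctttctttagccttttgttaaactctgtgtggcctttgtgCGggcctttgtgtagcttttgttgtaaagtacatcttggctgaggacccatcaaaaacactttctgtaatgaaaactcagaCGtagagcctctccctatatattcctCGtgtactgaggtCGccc
Hapln2: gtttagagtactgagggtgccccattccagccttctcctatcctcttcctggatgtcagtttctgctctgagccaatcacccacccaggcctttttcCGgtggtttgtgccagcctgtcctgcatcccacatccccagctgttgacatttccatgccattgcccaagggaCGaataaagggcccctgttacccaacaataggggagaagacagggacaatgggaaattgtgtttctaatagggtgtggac
Mag: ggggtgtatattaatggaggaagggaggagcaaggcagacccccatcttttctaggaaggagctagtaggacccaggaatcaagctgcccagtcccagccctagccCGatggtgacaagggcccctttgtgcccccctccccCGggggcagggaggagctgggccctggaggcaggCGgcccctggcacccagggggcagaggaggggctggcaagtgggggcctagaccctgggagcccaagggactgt
Tspan2: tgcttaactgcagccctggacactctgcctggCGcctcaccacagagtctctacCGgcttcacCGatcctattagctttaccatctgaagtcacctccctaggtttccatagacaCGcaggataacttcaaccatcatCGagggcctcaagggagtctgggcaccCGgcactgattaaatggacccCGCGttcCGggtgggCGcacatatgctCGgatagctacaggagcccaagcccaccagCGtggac
Cldn5: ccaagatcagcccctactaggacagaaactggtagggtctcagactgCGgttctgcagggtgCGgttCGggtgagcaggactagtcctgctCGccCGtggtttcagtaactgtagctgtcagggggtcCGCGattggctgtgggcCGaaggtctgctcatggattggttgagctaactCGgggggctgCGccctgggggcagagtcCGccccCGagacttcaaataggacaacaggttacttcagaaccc
Erg: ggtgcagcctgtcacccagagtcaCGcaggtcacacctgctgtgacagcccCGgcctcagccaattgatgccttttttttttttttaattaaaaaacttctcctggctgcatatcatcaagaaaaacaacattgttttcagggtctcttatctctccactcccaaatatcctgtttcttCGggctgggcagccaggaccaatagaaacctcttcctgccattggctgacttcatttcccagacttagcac
Ppard: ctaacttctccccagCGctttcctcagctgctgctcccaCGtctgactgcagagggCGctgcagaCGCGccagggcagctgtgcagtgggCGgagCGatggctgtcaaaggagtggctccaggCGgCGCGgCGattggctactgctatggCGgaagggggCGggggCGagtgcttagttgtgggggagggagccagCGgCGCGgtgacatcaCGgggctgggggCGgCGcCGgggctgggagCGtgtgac
The Mobp, Hapln2, Mag and Erg windows hold 4, 2, 3 and 3 CG dinucleotides, the Tspan2 and Cldn5 windows 12 each, and the Ppard window 22. The Mobp window carries 6 copies of ACAAAG, read on either strand, a core element bound by SOX proteins, the Mag window carries 1, and the other 5 carry none. A second SOX core, ACAATG, has 1 copy each in the Hapln2 and Erg windows and none in the others.

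Isolated-cell-only sites were low peaks in a thinly covered list. Peak height is the authors' tag count of a peak scaled to 10000000 tags per library, and in this library 1 tag is worth 0.458. The median height was 6.87 at isolated-cell-only sites (quartiles 5.95 and 8.24, range 4.58 to 28.9) and 10.1 at the other sites (7.79 and 13.3, range 4.58 to 42.1). A site of median height held 15 tags, and the 95% exact Poisson interval of that height ran from 3.85 to 11.3. At most 13 tags, the threshold the peak caller gives for this list, were held by 509 isolated-cell-only sites (29.8%, 27.7 to 32.1) and by 484 other sites (7.26%, 6.65 to 7.91). Only 59 isolated-cell-only sites were among the 2000 tallest peaks of the list. Sorted into 5 equal height classes, the sites made up 46.7% of the lowest class, 30.7%, 15.5% and 6.39% of the next 3 and 2.51% of the highest. Height was read from the same peak calls as the rule, and these values describe the sites without a test.

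**Figure D1:**
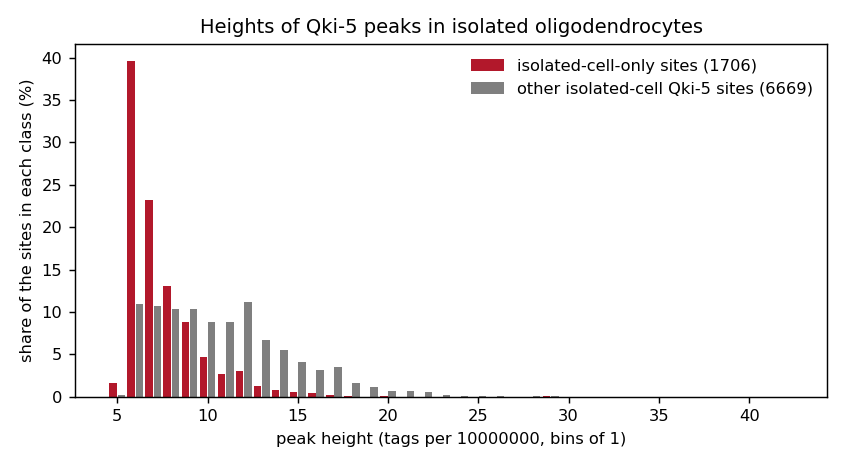
Share of the sites in each class (vertical axis, %) by Qki-5 peak height in isolated oligodendrocytes (horizontal axis, tags per 10000000, bins of 1), with isolated-cell-only sites in red and other sites in grey. The red bars crowd at the low end, with a median of 6.87, and the grey bars spread around a median of 10.1.

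By enrichment over input the site classes had the same median. The fold over input, the authors' ratio, was 6.71 at isolated-cell-only sites (quartiles 5.03 and 10.6) and 6.71 at the others (5.14 and 9.32). At least 8-fold over input were 37.7% (35.4 to 40.0) of the isolated-cell-only sites and 34.9% (33.7 to 36.0) of the others. Over the surrounding 10000 bp the order was that of the heights, with a median of 6.68-fold at isolated-cell-only sites and 9.25-fold at the others. The depth of the library was 21832339 tags, of which 0.85% lay in peaks, against 18078176 tags and 3.66% in the differentiated-cell Qki-5 library. The isolated-cell PPARb library had 18389111 tags with 0.12% in peaks.

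Most of the isolated-cell-only sites lay kilobases from any peak of the differentiated cells, and a minority were near misses of the rule. The median distance to the nearest of the differentiated-cell peaks was 9300 bp (quartiles 2484 and 26128, highest 1900572). Between 200 and 400 bp away were 163 sites, and a further 103 reached up to 1000 bp. Beyond these, 351 sites lay up to 5000 bp away, 547 up to 20000 bp, 432 up to 100000 bp and 110 farther still. Just inside the rule, the 15 sites at 200 to 210 bp had heights of 5.5 to 16.9 with a median of 7.33. Just outside it, the 29 other sites at 190 to under 200 bp had heights of 5.95 to 14.7 with a median of 9.16. The 266 sites within 1000 bp and the 1440 beyond differed in place. Gene ends held 49.6% of the nearer sites and 11.0% (9.40 to 12.7) of the farther ones, so the farther sites are given separately where this matters.

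The sites lay away from gene ends. Within 1000 bp of an end of a protein-coding gene were 290 isolated-cell-only sites (17.0%, 15.2 to 18.9), against 4776 other sites (71.6%, 70.5 to 72.7). The share of isolated-cell-only sites at gene ends depended on the rule: it was 28.9% with counterparts counted within 99 bp, 10.7% within 5000 bp, 31.3% against the differentiated-cell Qki-5 list alone, 29.0% against counterparts at least 8-fold over input and 50.8% among the 2000 tallest peaks. Deeper inside a gene were 836 isolated-cell-only sites (49.0%, 46.6 to 51.4) and 1283 other sites (19.2%, 18.3 to 20.2). Outside genes were 580 isolated-cell-only sites (34.0%, 31.7 to 36.3) and 610 other sites (9.15%, 8.47 to 9.86). The median distance to the nearest gene end was 14732 bp for isolated-cell-only sites and 143 bp for the others, and 429 (25.1%) and 337 (5.05%) lay over 50000 bp from any. By place, the median height of isolated-cell-only sites was 7.33 at gene ends and 6.87 both inside and outside genes. Of the sites, 203 lay inside the span of a listed long noncoding RNA gene. The table of genes used holds no exons, so exons, introns and untranslated regions were not told apart.

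**Figure D2:**
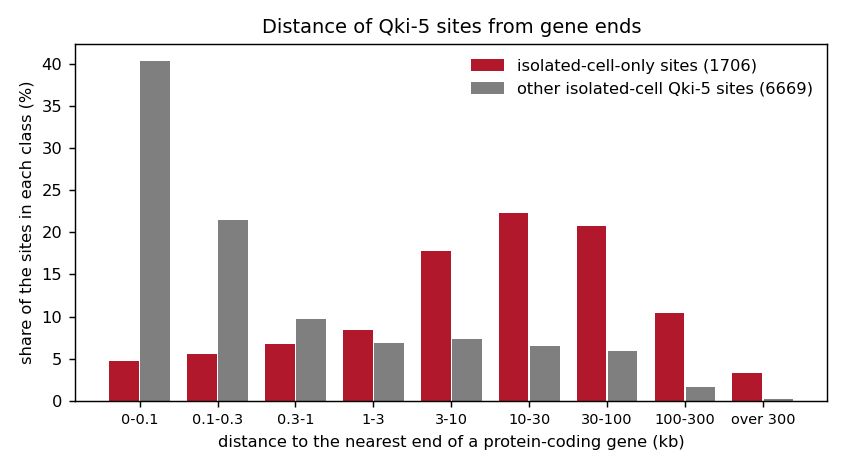
Share of the sites in each class (vertical axis, %) by distance to the nearest end of a protein-coding gene (horizontal axis, kb), with isolated-cell-only sites in red and other sites in grey. The grey bars peak within 0.1 kb of a gene end, and the red bars peak between 10 and 30 kb, around a median of 14732 bp.

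By chromosome, isolated-cell-only sites made up between 12.9% (7.56 to 20.1, 16 of 124) of the Qki-5 peaks on chromosome X and 24.0% (20.4 to 27.9, 124 of 517) on chromosome 1. Chromosome 17, with 13.2% (9.91 to 17.0), was the only autosome whose interval, like that of X, lay wholly below the overall share of 20.4%. Sites were seldom close together, with 41 lying at most 5000 bp after the preceding site and 130 at most 20000 bp.

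Among the 10 tallest isolated-cell-only sites, a site of 20.2 (14.6 to 27.1) at chr19:5846649-5846849 lay outside protein-coding genes, 4225 bp from Frmd8 and 1269 bp from an end of Neat1, a nuclear long noncoding RNA. It stood 16.4-fold over input and 1321 bp from a Pol II peak of differentiated cells. A further 8 of the 10 tallest were near misses at gene ends, 208 to 452 bp from a differentiated-cell peak. They lay at Ddx5 (18.3), an RNA helicase, Dyrk1a (17.4) and Csnk2a1 (16.9), protein kinases, Pan2 (16.5), a deadenylase, Cryzl1, Gtf3c2 and Gnb2 (16 each) and Kat7 (15.6), a histone acetyltransferase.

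Beyond 1000 bp from any differentiated-cell peak, other tall sites were mixed in place. They were singled out after their values were seen. Those at a gene end included Ccdc114 (15.6), Mettl14 (15.1), which encodes a subunit of the m6A methyltransferase of RNA, H13 (14.2), a signal peptide peptidase, and Fggy (13.7). Those inside genes included Fam53b (15.6), Ppp1r16b (14.7), Usp42 (14.7), Itpr2 (14.7), a calcium channel of the endoplasmic reticulum, Elmo1 (14.2), Klf13 (13.7), a zinc finger transcription factor, and Slain1 (13.3). The Mettl14 site was 4.10-fold over input and the Usp42 site 71.6-fold, the highest fold over input among the isolated-cell-only sites.

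Myelin sheath and paranode genes often held isolated-cell-only sites. Over all 21887 protein-coding genes, 323 (1.48%) had such a site within 1000 bp of an end, and 1018 (4.65%) within the gene span extended by 1000 bp on each side. Of the 26 myelin genes, 5 had a site at an end and 10 (38.5%) in the span. Other Qki-5 peaks of isolated cells lay in 8 of the 26 spans (30.8%), against 29.6% of all genes, and Qki-5 peaks of differentiated cells in 14 (53.8%), against 57.2% of all genes. The median length of the myelin genes was 17700 bp. Over all genes split into 5 length classes, the share with a site in the span was 0.914% in the shortest class and 12% in the longest, and 3.08% in the class around a median length of 17168 bp. Of the 10 genes, 9 had no other Qki-5 peak of isolated cells, and 7 had no Qki-5 peak of differentiated cells either, among them Mag, Mobp, Opalin, Hapln2, Tspan2 and Gjb1.

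Mbp, on chromosome 18 from 82475091 to 82585637, had 4 Qki-5 peaks in isolated cells, all inside the gene. The isolated-cell-only sites had heights of 10.1 (6.32 to 15.3) and 7.33 (4.19 to 11.9), and the other sites had 9.62 (5.95 to 14.7) and 8.24 (4.89 to 13.0). Their intervals overlap, so the peaks could not be ranked at this depth. The taller isolated-cell-only site, at chr18:82554353-82554553, also carried a PPARb peak of 7.07 and lay 2883 bp from a differentiated-cell peak.

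At promoters the heights were near the floor of the list. Mobp, a basic protein of compact myelin, had 8.24 (4.89 to 13.0) centred 189 bp before its start, 21772 bp from any differentiated-cell peak. Tspan2, a tetraspanin of myelinating cells, had 7.33 (4.19 to 11.9) 70 bp before its start, and Pllp, the membrane protein plasmolipin, 6.87 (3.85 to 11.3) 20 bp after its start. Mag, an adhesion protein that faces the axon, had 5.95 (3.17 to 10.2) 21 bp before a listed start, and Hapln2, a link protein of the matrix at nodes, 5.95 (3.17 to 10.2) 47 bp before its start. These are the sites in the promoter sequences printed above, Pllp excepted. Gjb1, the gap junction protein connexin 32, had 7.33 centred 68 bp before a listed start inside its span. Inside their genes lay the sites of Opalin (7.79), a surface protein of oligodendrocytes, and Cntn2 (8.24), an adhesion protein beside the paranode. Fold over input at the 11 sites of the list ran from 4.03 at Cntn2 to 38.0 at Opalin.

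Mog, Cldn11, Mal and Ermn, which also mark mature myelin, had no Qki-5 peak of either cell kind in their spans. The nearest isolated-cell-only site to Mog lay 1202494 bp away. Cnp, an enzyme of non-compact myelin, had an other site of 8.70 (5.24 to 13.6) at its end and no isolated-cell-only site within 268590 bp.

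**Figure D3:**
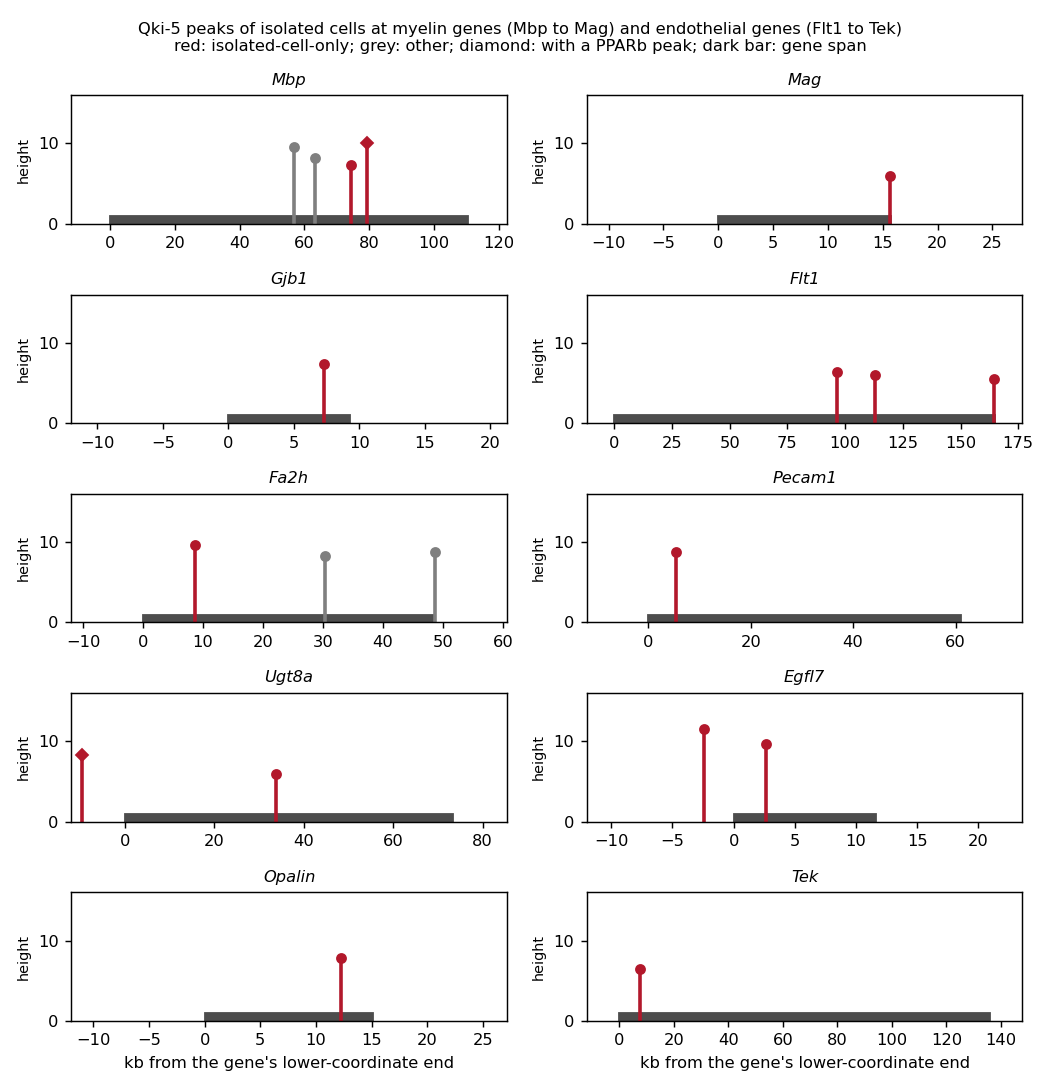
Qki-5 peaks of isolated cells by position (horizontal axis, kb from the gene's lower-coordinate end) and height (vertical axis, tags per 10000000) at Mbp, Gjb1, Fa2h, Ugt8a, Opalin, Mag, Flt1, Pecam1, Egfl7 and Tek, with isolated-cell-only sites in red, other sites in grey, diamonds for sites with a PPARb peak and a dark bar for the gene. Peaks within 10 kb of the gene are drawn, on the same height axis in every panel, and the drawn isolated-cell-only sites in the gene spans run from 5.50 to 10.1.

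Enzymes and surface proteins of mature oligodendrocytes had isolated-cell-only sites in 17 of 35 gene spans (48.6%), against 4.65% of all genes. Other sites of isolated cells lay in 17 of the 35 spans as well, and Qki-5 peaks of differentiated cells in 26 (74.3%). At a gene end, 5 of the 35 had an isolated-cell-only site, against 1.48% of all genes, and 18 had any Qki-5 peak of isolated cells, against 26.4%. The median length of these genes was 21445 bp, in the length class where 3.08% of all genes had an isolated-cell-only site in the span. The 19 sites had a median height of 9.16 (range 5.95 to 11.5). Among the galactolipid enzymes, Fa2h, which hydroxylates the fatty acids of myelin lipids, had 9.62 (5.95 to 14.7), Ugt8a, which makes galactosylceramide, 5.95 (3.17 to 10.2), and Gal3st1, which makes sulfatide, 5.95 (3.17 to 10.2) 166 bp before its start. These galactolipid sites lay between 19622 and 28248 bp from any differentiated-cell peak.

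Receptors and channels of the same list had sites at their promoters. S1pr5, a sphingosine-1-phosphate receptor, had 9.62 (5.95 to 14.7) 47 bp before its start, and Gpr37, an orphan receptor of myelinating cells, 9.16 (5.60 to 14.1) 34 bp after its start. Kcnj10, a potassium channel of glia, had 10.5 (6.68 to 15.8) 51 bp before its start, but 239 bp from a differentiated-cell peak. Efnb3, an ephrin ligand, had sites of 11.5 (7.41 to 16.9) and 8.24 (4.89 to 13.0) at an end. Inside genes lay those of Enpp6 (11.5), a choline phosphodiesterase of newly formed oligodendrocytes, Anln (10.5), an actin-binding protein, Tppp (9.62), a microtubule-binding protein, and Lgi3 (9.62). Slc44a1 (9.16), a choline transporter, Sirt2 (7.79), a deacetylase, Ndrg1 (7.33), Enpp2 (6.87), Gltp (6.41 and 5.95) and Lpar1 (5.95) made up the rest. Gal3st1, S1pr5 and Efnb3 had no Qki-5 peak of differentiated cells in their spans, and 7 of the 17 genes had no other Qki-5 peak of isolated cells.

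Transcription factors of the oligodendrocyte lineage had isolated-cell-only sites in 7 of 17 gene spans (41.2%), against 4.65% of all genes, and other sites in 3, against 29.6% of all genes. Sites beyond 1000 bp from any differentiated-cell peak lay in 5 of the 17, without Sox6 and Zfp24. Qki-5 peaks of differentiated cells lay in 12 of the 17. The 12 sites had a median height of 6.18 (range 5.50 to 15.6). Nkx2-2, a homeodomain factor of differentiating cells, had 10.1 (6.32 to 15.3), and Zeb2, a repressor needed for myelination, 11.0 (7.04 to 16.4), both inside the gene. Myrf, the activator of myelin genes, had 5.50 (2.84 to 9.60) inside the gene, 7851 bp from any differentiated-cell peak. Zfp536 held 4 sites of 5.50 to 6.87, and St18 and Sox6 2 each, of 5.50 to 6.41. At an end were Zfp24 (15.6), a zinc finger protein needed for myelination, whose site lay 216 bp from a differentiated-cell peak, and St18 (5.50). The genes Zfp536, Sox6, St18 and Zeb2 are long, and the median length of the list was 18949 bp.

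Sox10, Olig1, Olig2 and Nkx6-2 had no Qki-5 peak of isolated cells in their spans. The nearest isolated-cell-only sites were of 7.33 at 2537 bp before the start of Olig2, 267 bp from a differentiated-cell peak, of 5.95 at 6512 bp from Nkx6-2, and of 5.95 at 37501 bp from Sox10. Genes of oligodendrocyte precursors had such sites in 3 of 17 spans (17.6%, against 4.65% of all genes): Gpr17 (7.33), a receptor of committed precursors, Lhfpl3 (9.16) and Ptprz1 (5.50). The classical precursor markers Pdgfra and Cspg4 had none.

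Genes of blood vessel cells also held isolated-cell-only sites, in 10 of 24 spans (41.7%), against 4.65% of all genes, and 2 of the 24 had a site at an end, against 1.48%. Among peaks at least 8-fold over input, 4 of the 24 vessel spans, 3 of the 26 myelin spans and 12 of the 35 mature oligodendrocyte spans held such a site. At that setting 95 of all 21887 genes had a site at an end, which is not a background for spans. The share over all gene spans was not counted there, so these counts cannot be set against a background. Other Qki-5 peaks of isolated cells lay in 1 of the 24 spans, and Qki-5 peaks of differentiated cells in 9 (37.5%). The median length of these genes was 34262 bp, and in the length class around 35836 bp 4.71% of all genes had an isolated-cell-only site. The 12 sites had a median height of 6.41 (range 5.50 to 9.62) and a summed height of 80.6, and none carried a PPARb peak. In comparison, the 11 sites of the myelin list had a summed height of 104.

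All 10 of these genes are known from endothelial cells. Flt1, a receptor for VEGF, had 3 sites of 6.41 (3.51 to 10.8), 5.95 (3.17 to 10.2) and 5.50 (2.84 to 9.60), the last centred 120 bp before a listed start. Cldn5, the main claudin of the blood-brain barrier, had 5.95 (3.17 to 10.2) 134 bp before its start, 35011 bp from any differentiated-cell peak. Erg, an ETS factor of endothelial identity, had 6.41 (3.51 to 10.8) 2 bp before a listed start inside its span, and Egfl7, a secreted protein of vessels, 9.62 (5.95 to 14.7) 146 bp before a listed start inside its span. Pecam1 (8.70), Cdh5 (6.41) and Esam (6.87), adhesion proteins of endothelial junctions, Tek (6.41), the angiopoietin receptor, Abcb1a (6.41), a drug efflux pump, and Sox17 (5.95) had a site inside the gene. Cldn5, Cdh5, Tek, Esam and Sox17 had no Qki-5 peak of differentiated cells.

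The endothelial genes Kdr, Tie1, Slco1a4, Slc2a1, Ly6c1, Vwf and Sox18 and the mural genes Pdgfrb, Rgs5, Acta2, Tagln, Kcnj8, Vtn and Notch3 had no isolated-cell-only site. The intervals of all 12 vessel sites overlap each other. How far cells other than oligodendrocytes contributed to the isolated-cell library was not tested, and in bulk chromatin a larger share of a cell type and more occupancy per cell cannot be told apart.

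The lists of the other brain cells were too short to tell their counts from the background. The 20 neuronal, 16 astrocyte, 20 microglial and 10 ependymal and choroid plexus genes had isolated-cell-only sites in 0 spans, among them Snap25, Rbfox3, Gfap, Aqp4, Slc1a2, Cx3cr1, Csf1r and P2ry12. At the 4.65% of all genes, each of these lists would hold under 1 gene with a site, so the counts of 0 are near the background. Other Qki-5 peaks of isolated cells lay in 1 neuronal gene (Slc32a1, 6.41), 1 astrocyte gene (Glul, 10.5) and 1 microglial gene. Genes of other tissues held isolated-cell-only sites in 3 of 29 spans (10.3%, against 4.65% of all genes): Myog (9.62), Vil1 (6.87) and Tg (6.41). The Vil1 and Myog sites lay at an end, at least 20991 bp from any differentiated-cell peak.

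The lists of housekeeping and metabolic genes, apart from the sphingolipid and galactolipid list given below, had isolated-cell-only sites in 0 to 2 genes each. Over all genes 4.65% had such a site and 29.6% an other site. In lists of 22 to 32 genes, counts of 0 to 2 are near that background. Cholesterol synthesis genes had them in 0 of 22 spans, against 13 (59.1%) with other sites, and SR and hnRNP splicing factors in 0 of 30, against 27 (90.0%). Cytosolic ribosomal protein genes had 1 of 32, Rps9 (6.87, 217 bp from a differentiated-cell peak), against 26 (81.2%) with other sites. Respiratory chain genes had 2 of 26 (7.69%), among them Sdhc (5.95), against 20 with other sites. Fatty acid oxidation genes had 2 of 23 (8.70%), Acadl (9.62) and Cpt1a (8.24), both within 298 bp of a differentiated-cell peak, against 8 with other sites. PPAR and RXR receptors and known PPAR targets had 2 of 24 (8.33%), Cpt1a again and Vldlr (7.33), a lipoprotein receptor, against 5 (20.8%) with other sites. Ppard had other sites of 7.79 and 6.87 and no isolated-cell-only site within 24941 bp, and Angptl4, a PPAR target, had none within 859343 bp. Qk itself had an other site of 11.0 (7.04 to 16.4) at its end and no isolated-cell-only site.

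Immediate-early genes had isolated-cell-only sites in 3 of 25 spans (12%, against 4.65% of all genes), Klf2 (7.79), Egr3 (6.41) and Ier5 (5.95), all 625 to 1723 bp from a differentiated-cell peak, and other sites in 16 (64.0%, against 29.6% of all genes). Sphingolipid and galactolipid genes had isolated-cell-only sites in 4 of 23 spans (17.4%, against 4.65% of all genes), which were Fa2h, Ugt8a, Gal3st1 and Sgms1. They had other sites in 12 (52.2%, against 29.6% of all genes).

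**Figure D4:**
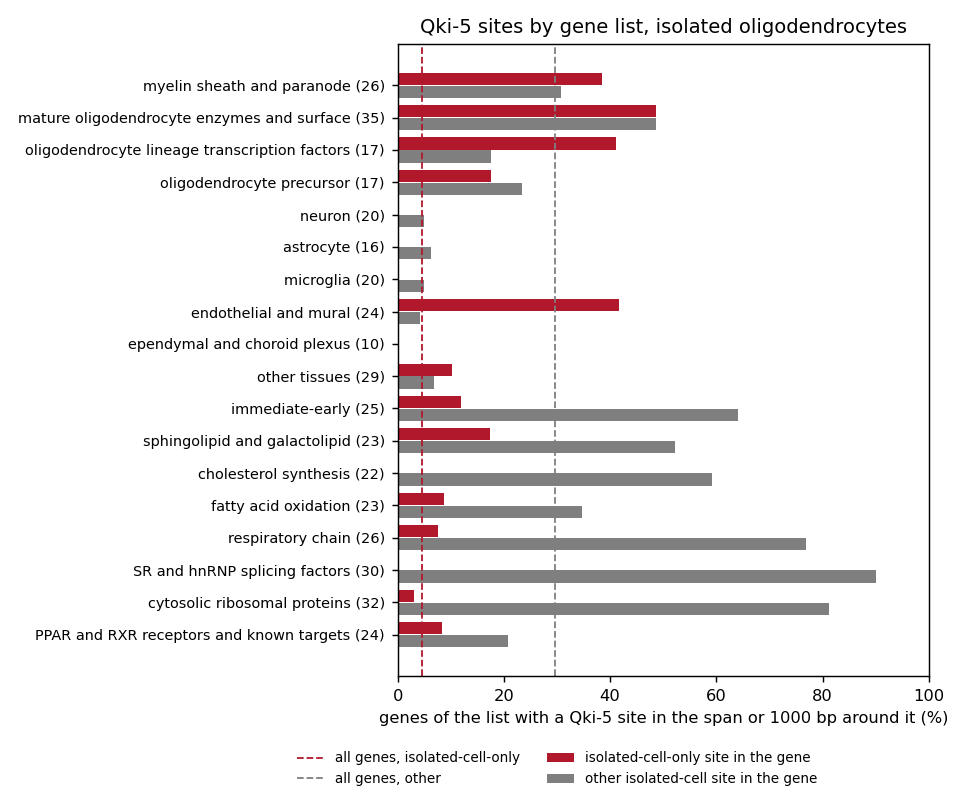
Share of the genes of each list (vertical axis, with the number of genes) that held a Qki-5 site of isolated cells in the gene span or 1000 bp around it (horizontal axis, %), with isolated-cell-only sites in red, other sites in grey and dashed lines for all protein-coding genes (4.65% and 29.6%). The red bars reach 38.5% to 48.6% for myelin, mature oligodendrocyte, lineage factor and vessel genes and are at 0 for neuronal, astrocyte, microglial and ependymal genes, in lists of 10 to 20 genes.

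Several long genes held groups of isolated-cell-only sites. Of the 1018 genes with such a site, 873 had 1 and 123 had 2, while 19 had 3, 1 had 4 and 2 had 5. Sgms1, a sphingomyelin synthase on chromosome 19 from 32122727 to 32389885, had 5 sites, of 11.0 (7.04 to 16.4), 9.16, 8.24, 6.87 and 6.87. They lay 10280 to 74039 bp from any differentiated-cell peak, and the site of 9.16 was centred 135 bp after a listed start. Gnao1, a G protein subunit on chromosome 8, also had 5, of 10.1 (6.32 to 15.3), 8.70, 7.33, 6.41 and 5.95. Zfp536 followed with 4, and Elmo1, an engulfment and migration protein, had 3, of 14.2 (9.65 to 20.2), 5.95 and 5.50. The overlapping genes Iqschfp and Schip1 shared 3 sites of 11.5, 6.87 and 6.41. Each of these genes spans at least 159235 bp.

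PPARb peaks of isolated cells were found at 77 isolated-cell-only sites (4.51%, 3.58 to 5.61) and at 985 other sites (14.8%, 13.9 to 15.6). The rule did not use their library, but it did use the PPARb and HA lists of differentiated cells. A site counted when the peak centres were under 200 bp apart, and over all Qki-5 peaks of isolated cells the share was 12.7%. The difference was -10.3 percentage points (Newcombe interval -11.5 to -8.88). Height moved with this difference. In the 5 height classes, from lowest to highest, 1.15%, 5.24%, 7.72%, 10.3% and 23.8% of isolated-cell-only sites had a PPARb peak, against 4.04%, 7.41%, 10.7%, 16.5% and 27.8% of other sites. The difference within a class was -2.89 points (-4.48 to -1.38) in the lowest class. In the 4 higher classes it was -2.17 (-4.48 to 0.487), -2.94 (-6.11 to 1.24), -6.17 (-11.0 to 1.23) and -3.99 (-14.6 to 10.9), with intervals that include 0. Of the 171 PPARb peaks of isolated cells with no differentiated-cell peak under 200 bp away, 68 lay at an isolated-cell-only site. Of all 1391 PPARb peaks of isolated cells, 1062 lay at a Qki-5 peak of isolated cells. The 171 peaks and the isolated-cell-only sites were set by the same differentiated-cell lists, so the count of 68 is a description only. Qki-5 peaks near a differentiated-cell PPARb or HA peak could not be isolated-cell-only sites. The shares and differences above therefore depend on the rule and are also descriptions only.

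**Figure D5:**
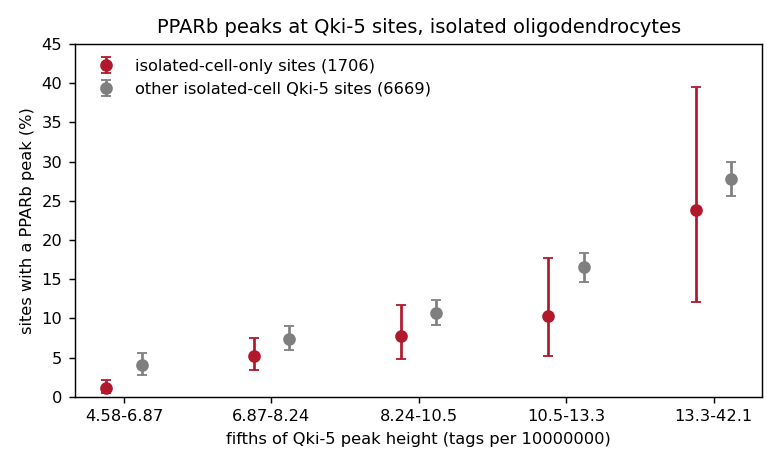
Share of Qki-5 sites of isolated cells with a PPARb peak (vertical axis, %, with 95% exact intervals) in 5 equal classes of Qki-5 height (horizontal axis, tags per 10000000), with isolated-cell-only sites in red and other sites in grey. Both shares are higher in taller classes, 1.15% to 23.8% for isolated-cell-only sites and 4.04% to 27.8% for other sites, and the red points lie below the grey in all 5 classes. The rule took out sites near a differentiated-cell PPARb or HA peak, so the gap is a description only.

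The 77 sites with both factors lay in all kinds of place. Gene ends held 18, the inside of genes 40 and the space between genes 19, and 59 lay over 1000 bp from any differentiated-cell peak. Their median Qki-5 height was 8.70, against 6.87 at isolated-cell-only sites without PPARb, and their PPARb heights had a median of 7.61 (range 6.53 to 19.6), against 8.16 at other sites. The tallest PPARb peaks were inside Galnt2 (19.6, 13.7 to 27.1), an enzyme that starts mucin-type glycosylation, and Magi2 (19), a scaffold protein, where Qki-5 heights were 8.24 and 7.33. The Magi2 site lay 102550 bp from any differentiated-cell peak and the Galnt2 site 1235 bp. Gnb2 (14.7) and Ddx5 (12) followed at gene ends.

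The sphingolipid and galactolipid, cholesterol synthesis, fatty acid oxidation and PPAR lists held 8, 0, 2 and 2 isolated-cell-only sites in their spans extended by 1000 bp. Of these, 0 carried a PPARb peak. Beside the 4.51% of all isolated-cell-only sites, so few sites cannot tell this count from the background. At -9.5 kb from the lower-coordinate end of Ugt8a, outside the searched span, lay an isolated-cell-only site of 8.24 with a PPARb peak. Elovl6, an elongase of long-chain fatty acids, had a PPARb peak of 12 and a Qki-5 peak of 8.24 inside the gene, 10375 bp from any differentiated-cell peak. St3gal5, which makes the ganglioside GM3, had 8.70 for PPARb and 9.16 for Qki-5 inside the gene, 25481 bp away. Dst, a cytoskeletal linker, had 10.9 for PPARb, Ppp1r16b 10.3, and Fam53b, Mis12 and Stambp 9.79 each. The genes 6430548M08Rik and D7Ertd443e had 9.24 each, and Herpud2, Rab30, Sgk1, Frmd4b, Slc9a4, Kcnk13 and Pdgfa 8.70 each, where Sgk1, Slc9a4 and Kcnk13 are the nearest genes of sites outside any protein-coding gene. By Qki-5 height, the tallest sites with PPARb were Ddx5 (18.3), Dyrk1a (17.4), Gnb2 (16), Fam53b (15.6), Ppp1r16b (14.7), Ap1m1 (14.7), Hdac4 (13.7), a histone deacetylase, Pigt (13.7), 6430548M08Rik (13.7) and Herpud2 (13.3). The Pigt site lay outside protein-coding genes, 7773 bp from an end of Pigt, its nearest gene. Among the listed oligodendrocyte genes, Mbp (7.07) and Tppp (7.61) alone had a PPARb peak at an isolated-cell-only site in the span.

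Promoters with an isolated-cell-only site were poorer in CG than those with other sites. The RefSeq promoter table gave 205 windows of 250 bases, of 195 genes, that touched an isolated-cell-only site and no other site, and 4816 windows with another site. The median number of CG dinucleotides was 14 with an isolated-cell-only site (quartiles 7 and 20), 20 with another site (15 and 27) and 6 over all 32851 windows. For the 121 windows whose site lay over 1000 bp from any differentiated-cell peak the median was 10, and 52.1% (42.8 to 61.2) of them held at most 10, as did 9.88% (9.05 to 10.8) of the windows with another site and 64.4% of all windows. For the 84 windows with a nearer site the median was 18. Among genes of the lists, the windows with sites ran from 2 in Hapln2 to 23 in Flt1.

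Short motifs were counted on both strands of these windows, and a match is a description, not a binding site. In the 121 windows with a farther site, the SOX cores ACAAAG and ACAATG were present in 22.3% (15.2 to 30.8) and 19.8% (13.1 to 28.1), against 9.41% and 5.29% of windows with another site and 16.5% and 10.7% of all windows. The nuclear receptor core AGGTCA was present in 18.2% (11.8 to 26.2), against 8.24% of windows with another site and 14.0% of all. The GC box GGGCGG was in 45.5% (36.4 to 54.8), 67.8% and 32.7% of the same groups, and the ETS core CCGGAAG in 6.61% (2.90 to 12.6), 22.0% and 6.91%. The core of the Quaking RNA element, read as DNA, was present as ACTAAC in 4.13% (1.36 to 9.38), 3.61% and 5.20%, and as ACTAAT in 3.31% (0.908 to 8.25), 2.49% and 5.40%. The direct repeat of the nuclear receptor core with 1 base between was in 0 of the 205 windows with an isolated-cell-only site (exact interval up to 1.78%). Windows with different CG content also differ in how often any of these letters can occur, and the motifs' part in the sites was not tested.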

How the data were processed

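ChIP-seq peak lists of 6 antibody libraries were used, 1 library per antibody and cell kind. The 2 input libraries entered through the peak caller's values. The submitters' processing notes name HOMER 4.10.1, SAMtools 1.8, Bowtie 1.2.2, Trim Galore 0.4.4 and bcl2fastq 2.19.1.403, and the build mm10, with no role or order. Per the file headers, the authors called peaks of 200 bp with HOMER findPeaks (style factor, false discovery rate 0.001). A peak had to exceed the surrounding 10000 bp by 4-fold and the input by 4-fold with a Poisson p-value of 0.0001. Centres were kept at least 400 bp apart, and duplicate reads had been removed.

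Height is the authors' normalized tag count, a signal that sets every library to 10000000 tags, per the file headers. The folds over input and over the local background are ratios deposited by the authors, and tags per peak are deposited counts. Heights rank and describe peaks within 1 list only. Library depths ran from 12624236 to 24880851 tags. A peak near the caller's limit can be lost in a library of other depth or background, so a missing counterpart says only that none was called.

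Peaks on chromosomes 1 to 19, X and Y were joined by centre distance with Python 3.11.15, numpy 2.4.6, pandas 2.3.3 and scipy 1.17.1, and figures drawn with matplotlib 3.10.9. Genes were the 21887 protein-coding entries of a RefSeq table of GRCm38.p6, with no strand or exons. Promoter sequences and listed starts came from RefSeq on the same build (32851 windows), and starts cover part of the genes. All 419 entries of 18 gene lists, 415 distinct genes, matched by symbol. Intervals of shares are 95% exact Clopper-Pearson, of heights 95% exact Poisson, and of differences of shares Newcombe intervals, covering counting error only. Height classes were cut by rank, ties by order in the list. With 1 library a group, 0 tests were run. The code was checked on simulated peaks.

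The sites and gene lists were chosen with earlier results of these data known. Named by rule were 16 fixed genes, the 10 tallest sites, the 10 tallest with PPARb, the genes of the 20 tallest PPARb peaks at sites, the 5 genes with most sites and, per list, up to 5 genes with the tallest site at an end. Other genes were named after their values were seen, and some genes the rule names are not reported here. Alternatives changed the match distance, the lists matched, the fold or number of peaks, the window and the PPARb distance.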

Additional observations from a re-analysis of the deposited data

Results flagged for a closer look

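Peaks outside the chromosomes used gave signal in isolated cells. The isolated-cell Qki-5 list held 5 peaks on contigs not placed or not localized on a chromosome, with heights of 6.87 to 15.1 and folds of 4.19 to 6.15 over input. The isolated-cell PPARb list held 2 such peaks, each of height 8.16 and 6.64-fold over input. They entered no comparison.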

How the results depend on the processing

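No paired analysis was possible because each antibody and cell kind had 1 library. Of 79 comparisons with an alternative, 34 stayed within the interval of the reported share or within 1.5 times the reported count, and 45 moved, none with a change of sign. The share of isolated-cell-only sites was 27.2% with matches within 99 bp, 17.2% within 1000 bp, 13.0% within 5000 bp, 30.5% against the differentiated-cell Qki-5 list alone, 21.3% without the Pol II list, 21.7% among peaks at least 8-fold over input, 28.5% against counterparts at least 8-fold over input and 2.95% among the 2000 tallest peaks. The share with PPARb was 6.05% within 99 bp, 6.53% at 8-fold, 6.24% against 8-fold counterparts, 20.3% among the tallest, and 5.74% with PPARb centres within 1000 bp. The share at gene ends, in the same order as the first share, was 28.9%, 11.0%, 10.7%, 31.3%, 19.9%, 13.4%, 29.0% and 50.8%, and 13.0% and 32.1% with end windows of 500 and 5000 bp. Genes with a site at an end numbered 764, 173, 126, 907, 95, 804 and 36 in that order without the Pol II setting, 688 within 5000 bp and 1018 over whole spans. The difference of median heights was -2.77 at 99 bp, -3.17 against Qki-5 alone, -3.67 at 8-fold, -2.77 against 8-fold counterparts and -1.0 among the tallest, -2.57 by fold over the local background and 0.00 by fold over input. Myelin genes with a site numbered 6 with matches within 5000 bp, 3 at 8-fold and 1 among the tallest, vessel genes 4 at 8-fold and 0 among the tallest, and mature oligodendrocyte genes 0 among the tallest, where fewer peaks remained. Otherwise these 3 lists stayed within 1.5 times their counts. The share over all gene spans was not counted at the other settings, so these counts have no background beside them. Peaks of 10 to 15 tags limit what the depth can show.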
